A study of Mus musculus with 12 samples.

Results

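The genes described here are 9 genes of the NRF2 antioxidant response in mouse liver, out of 54838 gene identifiers counted. They were chosen by name: the transcription factor gene Nfe2l2, which encodes NRF2, its repressor gene Keap1, and the target genes Osgin1, Nqo1, Gclc, Gclm, Srxn1, Txnrd1 and Hmox1. All 9 were counted in every library and all 9 passed the filter on low counts, so all are tested below among 13861 genes. C57BL/6J mice breathed either 21% O2 (normoxia) or 7% O2 (hypoxia) for 24 h and were then given an intraperitoneal injection of PBS or of the synthetic glucocorticoid dexamethasone (DEX) at 10 mg/kg. Livers were sampled 2 h later, and mice under 7% O2 were returned to that atmosphere after the injection. The groups were normoxia with PBS, normoxia with DEX, hypoxia with PBS and hypoxia with DEX, with 3 biological replicates in each. No mutation or transgene was named for any group. No comparison group without an injection was analysed here.

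NRF2 is a basic leucine zipper factor that, paired with a small MAF protein, binds antioxidant response elements in DNA. KEAP1 holds NRF2 in the cytoplasm and directs it to degradation, and oxidants or electrophiles that modify KEAP1 cysteines let NRF2 accumulate. Because this control acts on the protein, the Nfe2l2 transcript is not a measure of NRF2 activity. In liver the targets supply glutathione and thioredoxin, reduce quinones and degrade heme.

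Libraries held 12464687 to 24715995 counted reads. Levels are given in CPM, the counts of a gene scaled to a fixed library total, with library sizes adjusted by TMM (trimmed mean of M values), and ± gives the SD over 3 mice. All 9 hepatocyte markers had counts in every group, with a summed level of 117400 to 156700 CPM. The Hypoxia_PBS-1 library was the least like the others of its group, and Hypoxia_DEX-1 and Hypoxia_DEX-3 were the most alike of all replicate pairs, although they differed beyond counting noise. Results that change without one of these libraries are given with and without it.

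Short stretches of the promoters are shown because they place the elements through which NRF2, BACH1 and related factors act beside the genes whose levels are described. The RefSeq promoter table (GRCm38.p6, 250 bases before to 50 after each start) held 9 windows over 7 of the genes. The antioxidant response element core TGACNNNGC, searched on both strands, was found in 4 of the 9 windows and in 12.4% of all 32851 promoters of the table. Each stretch runs 5′ to 3′ along the gene's strand, with the core in capitals. It begins 240 bases before the start site in Nfe2l2, 134 before in Gclm, 92 before in Txnrd1 and at base 29 after it in Srxn1. Txnrd1 had several windows, of which only that shown held the core. This Txnrd1 window lies inside the gene's annotated span in GENCODE, which begins further upstream.
Nfe2l2 (window chr2:75704614-75704913, minus strand): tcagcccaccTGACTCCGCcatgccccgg
Gclm (window chr3:122245307-122245606, plus strand): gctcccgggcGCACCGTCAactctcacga
Txnrd1 (window chr10:82858956-82859255, plus strand): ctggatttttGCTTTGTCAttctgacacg
Srxn1 (window chr2:152105274-152105573, plus strand): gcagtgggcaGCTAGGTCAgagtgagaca

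The related sequence TGANTCAGC, which MAF heterodimers also bind, was added after the sequences were seen. It overlaps TGACNNNGC where its open base is C. It occurred in 2 of the 9 windows, those of Srxn1 and Osgin1, and in 1.19% of all promoters. Because it was chosen with these windows in view, the comparison with all promoters is not a test. The 250 bases before these starts are shown, with the match in capitals, because Srxn1 and Osgin1 are the members whose DEX response differed between the oxygen levels. A link between the match and that response was not tested.
Srxn1 (chr2:152105274-152105523, plus strand): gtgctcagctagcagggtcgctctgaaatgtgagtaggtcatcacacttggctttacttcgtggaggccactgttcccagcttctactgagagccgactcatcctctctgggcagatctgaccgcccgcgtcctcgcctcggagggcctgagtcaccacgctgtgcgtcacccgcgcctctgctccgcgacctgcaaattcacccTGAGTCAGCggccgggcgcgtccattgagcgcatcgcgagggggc
Osgin1 (chr8:119436897-119437146, plus strand): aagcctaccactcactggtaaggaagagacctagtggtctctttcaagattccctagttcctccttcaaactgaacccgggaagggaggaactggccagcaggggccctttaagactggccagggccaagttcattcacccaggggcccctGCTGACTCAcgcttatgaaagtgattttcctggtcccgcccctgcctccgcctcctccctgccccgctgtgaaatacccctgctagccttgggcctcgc
The match began 45 bases before the start in Srxn1 and 99 before it in Osgin1. The Osgin1 stretch lies inside that gene's annotated span in GENCODE, which begins further upstream. The hypoxia response element core ACGTG was found in 2 of the 9 windows, those of Gclm and Keap1, and in 19.6% of all promoters. The glucocorticoid element ACANNNTGT was found in 0 of the 9 and in 6.85% of all. A match describes the sequence only, and a window without one says nothing of elements elsewhere.

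The 9 genes did not move as a unit. In the hypoxia comparison under PBS, the quasi-likelihood test of edgeR, adjusted by the Benjamini-Hochberg method, called 1 of the 9 higher and 1 lower at an adjusted p under 0.05, while it called 35.7% of all tested genes (18.9% higher and 16.8% lower). After DEX in normoxia 1 rose and 4 fell, with 16.8% of all tested genes called (9.38% higher and 7.4% lower). After DEX in hypoxia 0 rose and 2 fell, with 13.2% called overall (6.13% higher and 7.05% lower). No member was higher there at an unadjusted p under 0.05 in edgeR, and DESeq2 also called 0 higher and 2 lower. The DEX response differed between the oxygen levels for 2 of the 9, upward for 1 and downward for 1, against 1.32% of all tested genes (0.325% and 0.996%). Between hypoxia and normoxia among DEX mice 3 were higher and 3 lower, with 42.9% called overall (20.7% higher and 22.2% lower). These comparisons share groups with one another and are therefore not independent. The 9 genes were chosen with earlier results of these data known, so their counts beside the shares of all genes are not a test. The median log2 fold changes of the 9 genes were 0.06, -0.21, -0.29, 0.01 and 0.15 in that order, beside 0.007, 0.002, -0.015, -0.022 and -0.021 for all tested genes.

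**Figure D1:**
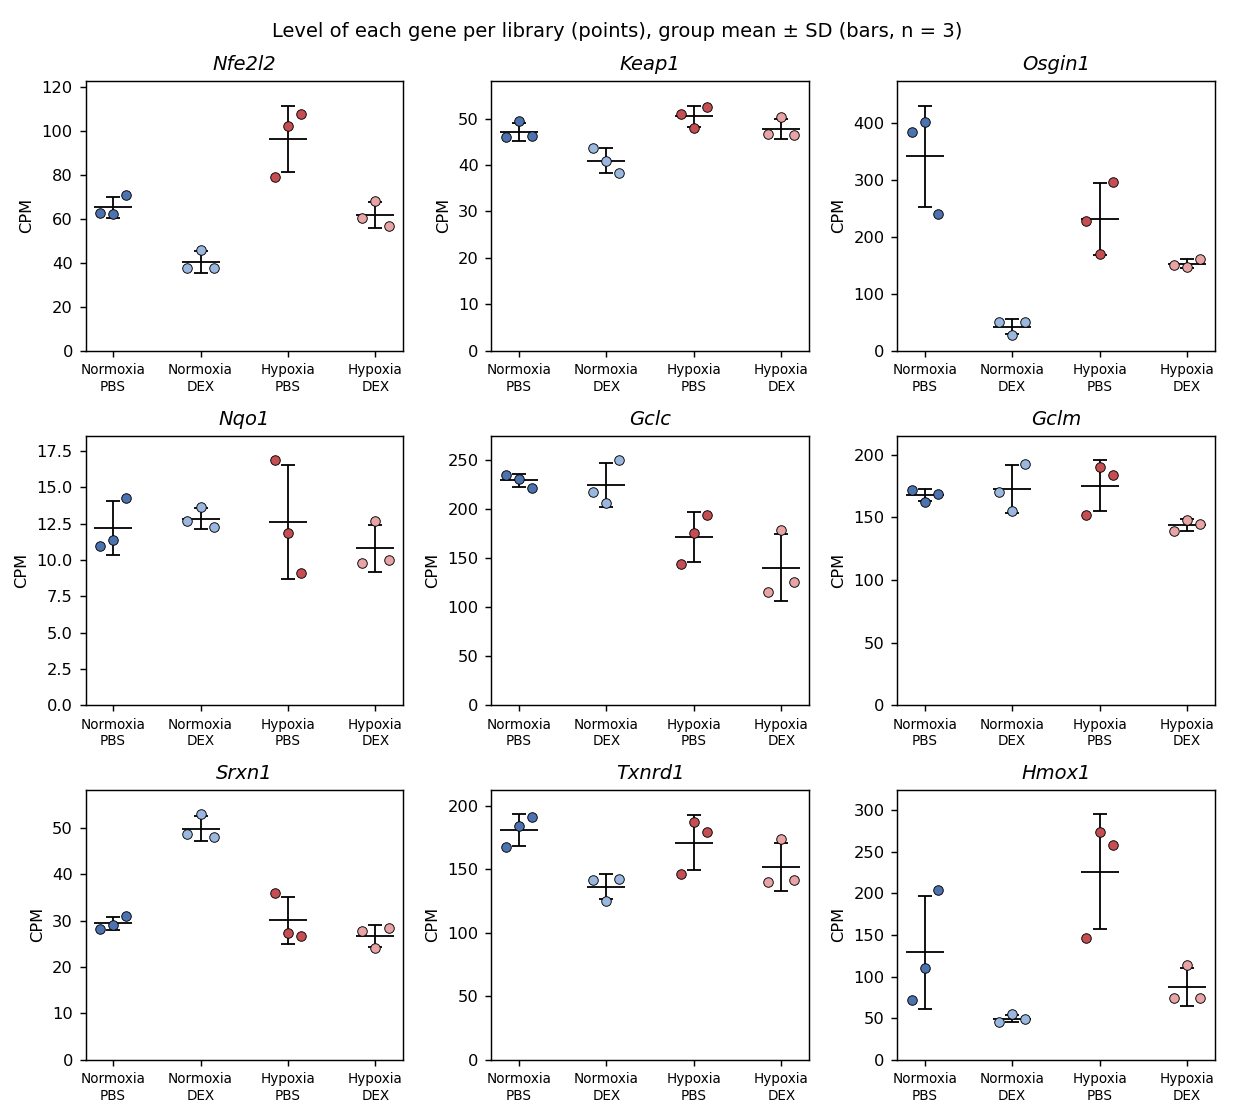
Level of each of the 9 genes in CPM (linear axes from 0) in the 4 groups, with a point per library and bars at the group mean ± SD (n = 3). Osgin1 ranges from 27.8 to 401 CPM and is lowest in normoxia with DEX, whereas every Keap1 point lies between 38.2 and 52.6 CPM.

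Nfe2l2, the gene of the factor itself (ENSMUSG00000015839, mm10 chr2:75675513-75704641, minus strand), was higher in hypoxia and lower after DEX. Its level in normoxia with PBS was 62.8, 62.2 and 70.9 CPM. In normoxia with DEX it was 37.6, 46.0 and 37.5 CPM. In hypoxia with PBS it was 79.1, 102.2 and 107.7 CPM, and with DEX 60.4, 68.3 and 56.6 CPM. All 3 normoxia DEX libraries lay below every other library, all 3 hypoxia PBS libraries lay above, and the other groups overlapped in between. Hypoxia raised the PBS mean from 65.3 ± 4.84 to 96.35 ± 15.15 CPM (edgeR log2 change 0.56 with SE 0.12, adjusted p = 0.0028). DEX lowered it in normoxia to 40.4 ± 4.89 CPM (edgeR log2 change -0.69 with SE 0.12, adjusted p = 0.00124). DEX lowered it in hypoxia to 61.8 ± 5.99 CPM (edgeR log2 change -0.64 with SE 0.12, adjusted p = 0.00325). Among DEX mice it was again higher in hypoxia (edgeR log2 change 0.61 with SE 0.12, adjusted p = 0.00129). The 2 DEX responses differed by 0.05 (SE 0.17, edgeR adjusted p = 0.944), which is less than the error and does not show that they were equal. The calls in the 4 pairwise comparisons held in all 19 alternative analyses.

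Keap1, the gene of the repressor (ENSMUSG00000003308, chr9:21229730-21239361, minus strand), varied little. It was measured at 46.0, 49.4 and 46.1 CPM in normoxia with PBS and at 43.6, 40.9 and 38.2 CPM after DEX. Its hypoxia levels were 50.9, 48.05 and 52.6 CPM with PBS and 46.6, 50.2 and 46.4 CPM with DEX. The normoxia groups did not overlap, yet the DEX difference missed the threshold (edgeR log2 change -0.21 with SE 0.07, adjusted p = 0.0608). It passed without Hypoxia_PBS-1 (adjusted p = 0.0473) or without Normoxia_DEX-1 (adjusted p = 0.0479), in an edgeR range of 0.0423 to 0.205 over the alternatives. Among DEX mice Keap1 was higher in hypoxia (edgeR log2 change 0.22 with SE 0.07, adjusted p = 0.0209). That call was lost without Hypoxia_DEX-2 (adjusted p = 0.0515) or Normoxia_DEX-3 (adjusted p = 0.0653), over a range of 0.014 to 0.0653. The oxygen difference under PBS was 0.10 (SE 0.07, edgeR adjusted p = 0.295), and the DEX difference in hypoxia was -0.08 (SE 0.07, edgeR adjusted p = 0.497).

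Osgin1 (ENSMUSG00000074063, chr8:119434124-119446256, plus strand) encodes oxidative stress induced growth inhibitor 1 and had the largest change of the 9 after DEX in normoxia. It stood at 385, 401 and 239.9 CPM in normoxia with PBS. After DEX in normoxia it stood at 49.8, 27.8 and 50.2 CPM. In hypoxia it stood at 227, 170.1 and 296 CPM with PBS and at 149.9, 148 and 161 CPM with DEX. The normoxia DEX libraries were far below all 9 others. The hypoxia groups did not overlap either, but lay close together. In normoxia the mean fell from 342 ± 88.7 to 42.6 ± 12.8 CPM, 8.05-fold lower (edgeR log2 change -3.01 with SE 0.30, adjusted p = 8.14e-05). In hypoxia it was 231 ± 63.1 CPM with PBS and 153 ± 7.34 CPM with DEX (edgeR log2 change -0.60 with SE 0.28, adjusted p = 0.202).

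The DEX response of Osgin1 in hypoxia minus that in normoxia was 2.41 on the log2 scale (SE 0.395, edgeR adjusted p = 0.0219). This call rested on the libraries used. It was lost without Hypoxia_DEX-1 (adjusted p = 0.068), Hypoxia_DEX-3 (0.0727), Normoxia_PBS-1 (0.0586) or Normoxia_PBS-2 (0.0529). The size of the difference stayed between 2.205 and 2.63 over the 18 alternatives, and its edgeR or DESeq2 adjusted p between 4.3e-09 and 0.0727. Among DEX mice Osgin1 was 3.6-fold higher in hypoxia than in normoxia (edgeR log2 change 1.85 with SE 0.29, adjusted p = 0.000641). Under PBS the oxygen difference did not pass (edgeR log2 change -0.56 with SE 0.275, adjusted p = 0.139). The falls with DEX in normoxia and the oxygen difference among DEX mice were called in all 19 alternatives.

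Srxn1 (ENSMUSG00000032802, chr2:152105516-152111376, plus strand) encodes sulfiredoxin, which reactivates over-oxidised peroxiredoxins, and was the member that rose after DEX in normoxia. It was measured at 28.3, 29.0 and 30.9 CPM in normoxia with PBS. After DEX in normoxia it was at 48.6, 52.85 and 47.9 CPM. Its hypoxia libraries held 35.95, 27.4 and 26.7 CPM with PBS and 27.7, 24.0 and 28.3 CPM with DEX. The normoxia DEX libraries were above all 9 others, and the remaining groups overlapped. The normoxia mean went from 29.4 ± 1.36 to 49.8 ± 2.67 CPM, 1.69-fold higher (edgeR log2 change 0.76 with SE 0.11, adjusted p = 0.000196). The hypoxia mean was 30.0 ± 5.15 CPM with PBS and 26.7 ± 2.31 CPM with DEX (edgeR log2 change -0.17 with SE 0.11, adjusted p = 0.346). The difference of the DEX responses was -0.93 (SE 0.15, edgeR adjusted p = 0.00858) and was called in all 18 alternatives. Among DEX mice Srxn1 was 1.86-fold lower in hypoxia (edgeR log2 change -0.90 with SE 0.11, adjusted p = 2.84e-05). Under PBS oxygen moved it by 0.03 (SE 0.11, edgeR adjusted p = 0.838). Osgin1 and Srxn1 therefore differed from normoxia in opposite directions among DEX mice.

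**Figure D2:**
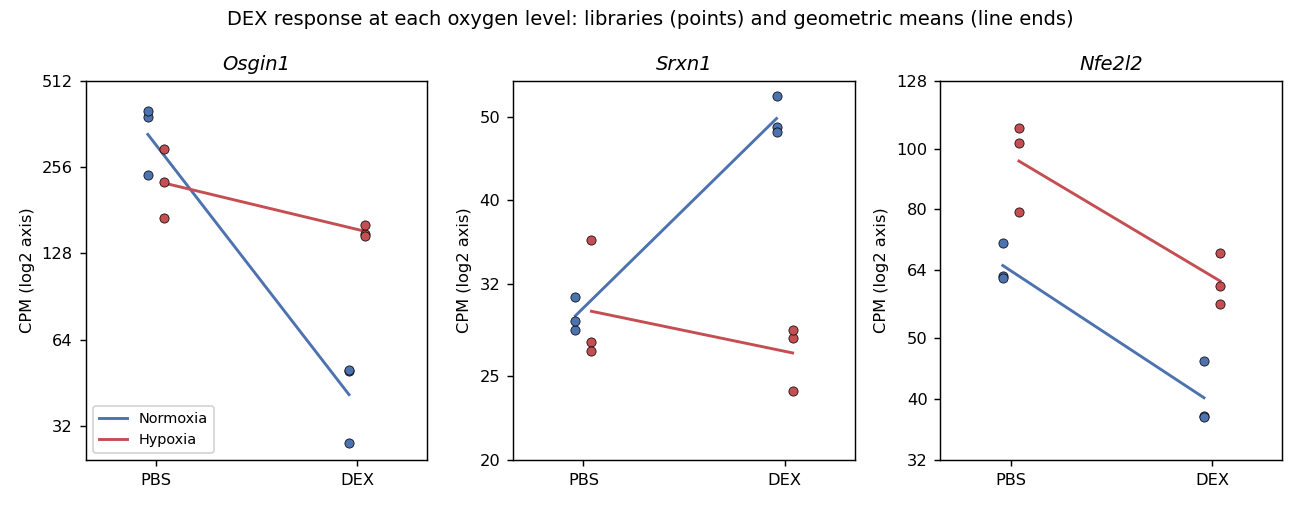
Level of Osgin1, Srxn1 and Nfe2l2 (CPM on a log2 axis) with PBS and with DEX, with a point per library and lines joining the geometric means of 3 libraries in normoxia (blue) and hypoxia (red). The lines for Osgin1 and Srxn1 have different slopes. For Nfe2l2 the edgeR estimate of the difference between the DEX responses was 0.05 on the log2 scale.

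Hmox1 (ENSMUSG00000005413, chr8:75093621-75100589, plus strand) encodes heme oxygenase 1, which opens the heme ring, and is also a target of other stress and hypoxia factors. In normoxia it was at 72.3, 111 and 205 CPM with PBS and at 45.5, 54.7 and 48.6 CPM with DEX. Under hypoxia it was at 147, 273 and 258 CPM with PBS and at 74.15, 114 and 74.7 CPM with DEX. At each oxygen level every DEX library was below every PBS library, while the spread between PBS mice was wide. DEX lowered the normoxia mean from 129 ± 68.1 to 49.6 ± 4.66 CPM (edgeR log2 change -1.38 with SE 0.39, adjusted p = 0.0401). It lowered the hypoxia mean from 226 ± 69.0 to 87.5 ± 22.7 CPM (edgeR log2 change -1.37 with SE 0.385, adjusted p = 0.0485). The difference between these responses was 0.01 (SE 0.535, edgeR adjusted p = 0.999).

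Both Hmox1 calls lay near the threshold, and each was lost in 12 of 19 alternatives. For DEX in normoxia the adjusted p ranged from 0.00407 to 0.121. Without Normoxia_PBS-3, the highest of its group, the log2 fold change was -0.885 (edgeR adjusted p = 0.0991). Among normoxia libraries, the call was also lost without Normoxia_PBS-2 (0.0717) and without the DEX replicates 1 (0.121), 2 (0.0913) or 3 (0.11). Among hypoxia libraries it was lost without DEX replicate 1 (0.0524) or 3 (0.0539) and without PBS replicate 3 (0.0593) or 2 (0.0516). For DEX in hypoxia the range was 0.00695 to 0.159. There the call was lost without hypoxia DEX replicate 1 (0.155), 2 (0.0569) or 3 (0.159) and without hypoxia PBS replicate 2 (0.14) or 3 (0.142). It was lost too without normoxia DEX replicate 1 (0.0735), 2 (0.0712) or 3 (0.0726) and without Normoxia_PBS-2 (0.0691). The oxygen difference of Hmox1 did not pass under PBS (edgeR log2 change 0.81 with SE 0.38, adjusted p = 0.131) or under DEX (0.82, SE 0.385, edgeR adjusted p = 0.119). Without Normoxia_PBS-3 it passed in both, at 1.30 on the log2 scale under PBS (edgeR, adjusted p = 0.015) and at an adjusted p of 0.0437 under DEX. Over the alternatives the adjusted p ran from 0.015 to 0.302 under PBS and from 0.0101 to 0.281 under DEX.

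Hmox1 is expressed by the liver's resident macrophages (Kupffer cells) as well as by hepatocytes. In bulk tissue, fewer cells of a type and less RNA per cell cannot be told apart. All 15 Kupffer markers had counts in each group. Their summed level was 578 to 753 CPM in normoxia with PBS, 633 to 911 CPM with DEX, 256 to 318 CPM in hypoxia with PBS and 278 to 302 CPM with DEX. Hypoxia lowered 13 of the 15 under PBS (median log2 fold change -1.11) and 13 of 15 under DEX (median -1.24), whereas DEX in normoxia raised 2 and lowered 1. Among all tested genes 16.8% were lower in hypoxia under PBS and 22.2% under DEX. DEX in normoxia raised 9.38% of all tested genes and lowered 7.4%. The Hmox1 means were larger in the hypoxia groups, where these markers were lower, although that difference in Hmox1 did not pass the test with all libraries. The log2 level of Hmox1 minus the mean log2 level of the markers averaged 1.815 ± 0.92 in normoxia with PBS and 0.46 ± 0.15 with DEX. In hypoxia it averaged 3.85 ± 0.36 with PBS and 2.50 ± 0.29 with DEX. In each of the 4 pairwise comparisons the groups did not overlap (exact two-sided permutation test, p = 0.1, the smallest that 3 against 3 allows, and 0.133 after adjustment over 8 such tests). In the 2 oxygen comparisons the fall of the markers itself raises this measure. It therefore does not show that Hmox1 was higher in hypoxia.

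The summed level of neutrophil markers was lower after DEX in normoxia, while in hypoxia the PBS and DEX ranges overlapped. Of the tested markers, edgeR called Csf3r and Cxcr2 lower after DEX at each oxygen level, and no other. Ly6g, Mpo and Elane did not pass the filter on low counts. The 9 neutrophil markers summed to 31.1 to 50.7 CPM in normoxia with PBS and to 9.87 to 16.6 CPM with DEX. In hypoxia they summed to 25.8 to 94.3 CPM with PBS and to 18.3 to 43.25 CPM with DEX. No marker of either list was at 0 in all 12 libraries. Their part in the Hmox1 differences was not tested.

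**Figure D3:**
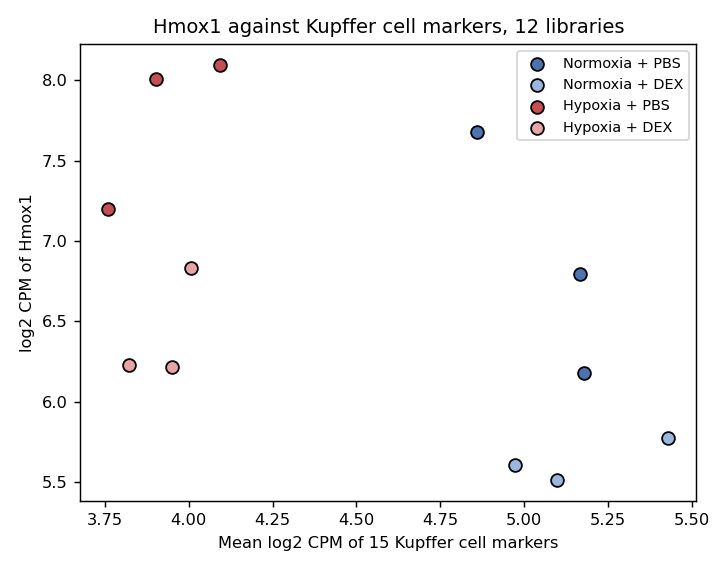
Log2 CPM of Hmox1 (vertical) against the mean log2 CPM of 15 Kupffer cell markers (horizontal), with a point per library and a colour per group of 3. The 6 hypoxia libraries lie to the left of the 6 normoxia libraries, and within each oxygen level the DEX points lie below the PBS points.

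Gclc and Gclm encode the catalytic and the modifier subunit of glutamate cysteine ligase, the enzyme of the first step of glutathione synthesis. Gclc (ENSMUSG00000032350, chr9:77754535-77794485, plus strand) was at 235, 231 and 222 CPM in normoxia with PBS and at 218, 206 and 249.9 CPM with DEX. Under hypoxia it was at 144, 176 and 194 CPM with PBS and at 116, 179 and 126 CPM with DEX. All 6 hypoxia libraries lay below all 6 normoxia libraries. Hypoxia lowered Gclc from 229 ± 6.74 to 171 ± 25.15 CPM under PBS (edgeR log2 change -0.42 with SE 0.15, adjusted p = 0.0462). It lowered it from 224 ± 22.8 to 140.2 ± 33.9 CPM under DEX (edgeR log2 change -0.68 with SE 0.15, adjusted p = 0.00318). The call under DEX held in all 19 alternatives. The call under PBS was lost without Hypoxia_PBS-1 (0.125), Hypoxia_PBS-2 (0.0707), Normoxia_DEX-1 (0.0607), Normoxia_PBS-1 (0.107), Normoxia_PBS-2 (0.103) or Normoxia_PBS-3 (0.076), with adjusted p from 0.00677 to 0.125 over all alternatives. DEX itself gave -0.03 in normoxia (SE 0.15, edgeR adjusted p = 0.932) and -0.29 in hypoxia (SE 0.15, edgeR adjusted p = 0.242). The latter passed without Hypoxia_DEX-2 (edgeR log2 change -0.48, adjusted p = 0.0211), in a range of 0.0014 to 0.608.

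Gclm (ENSMUSG00000028124, chr3:122245557-122270732, plus strand) changed less. It was at 172, 162 and 169 CPM in normoxia with PBS and at 169.9, 155 and 193 CPM with DEX. In hypoxia it was at 152, 190.0 and 184 CPM with PBS and at 139, 148 and 145 CPM with DEX. The hypoxia DEX libraries were below all 9 others, and the other groups overlapped. Among DEX mice Gclm was lower in hypoxia (173 ± 19.0 to 144 ± 4.53 CPM, edgeR log2 change -0.26 with SE 0.095, adjusted p = 0.039). That call was lost without Hypoxia_DEX-1 (0.141), Hypoxia_DEX-2 (0.0736), Hypoxia_DEX-3 (0.0995), Normoxia_DEX-1 (0.07) or Normoxia_DEX-3 (0.207), in a range of 0.0212 to 0.207. DEX in hypoxia gave -0.29 (SE 0.095, edgeR adjusted p = 0.0662), and -0.355 without Hypoxia_PBS-1 (edgeR adjusted p = 0.013), in a range of 0.013 to 0.223. Under PBS oxygen moved Gclm by 0.065 (SE 0.095, edgeR adjusted p = 0.628).

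Per kilobase of exon, the log2 ratio of Gclc to Gclm was 1.19 ± 0.06 in normoxia with PBS and 1.12 ± 0.025 with DEX. It was 0.70 ± 0.10 in hypoxia with PBS and 0.68 ± 0.29 with DEX. The difference between hypoxia and normoxia was -0.49 under PBS and -0.44 under DEX, with no overlap (exact two-sided permutation p = 0.1 for each, the smallest possible, and 0.133 adjusted over 8 tests). DEX changed it by -0.07 in normoxia (exact permutation p = 0.2) and by -0.025 in hypoxia (p = 1.0). The subunit transcripts therefore stood in a lower catalytic to modifier ratio in the hypoxia libraries.

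Txnrd1 (ENSMUSG00000020250, chr10:82833951-82897712, plus strand) encodes cytosolic thioredoxin reductase. It was at 167, 184 and 191 CPM in normoxia with PBS and at 141, 125 and 142 CPM with DEX. In hypoxia it was at 146, 187 and 179.6 CPM with PBS and at 139.9, 173.5 and 142 CPM with DEX. The normoxia groups did not overlap and the hypoxia groups did. DEX lowered the normoxia mean from 181 ± 12.25 to 136 ± 9.62 CPM (edgeR log2 change -0.41 with SE 0.11, adjusted p = 0.0196). The call was lost without Normoxia_DEX-2 (0.0706), Normoxia_PBS-2 (0.0642) or Normoxia_PBS-3 (0.0651), in a range of 0.00116 to 0.0706. In hypoxia the DEX difference was -0.17 (SE 0.11, edgeR adjusted p = 0.342), and the 2 responses differed by 0.24 (SE 0.15, edgeR adjusted p = 0.587). Oxygen gave -0.08 under PBS (SE 0.11, edgeR adjusted p = 0.587) and 0.15 under DEX (SE 0.11, edgeR adjusted p = 0.273).

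Nqo1 (ENSMUSG00000003849, chr8:107388225-107403206, minus strand) encodes a quinone reductase and is widely used as a readout of NRF2. It had the fewest reads of the 9, with 136 to 329 in a library, and lay at 9.13 to 16.9 CPM. Its means were 12.2 ± 1.83 CPM in normoxia with PBS, 12.9 ± 0.708 with DEX, 12.6 ± 3.94 in hypoxia with PBS and 10.8 ± 1.62 with DEX. All groups overlapped. Its log2 fold changes were 0.06 for hypoxia under PBS (SE 0.19, edgeR adjusted p = 0.841) and 0.08 for DEX in normoxia (SE 0.19, edgeR adjusted p = 0.832). They were -0.24 for DEX in hypoxia (SE 0.19, edgeR adjusted p = 0.47) and -0.26 for hypoxia under DEX (SE 0.19, edgeR adjusted p = 0.284). The DEX responses differed by -0.32 (SE 0.27, edgeR adjusted p = 0.701). No change in Nqo1 passed the threshold in these 5 comparisons, which does not show that its level was the same.

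**Figure D4:**
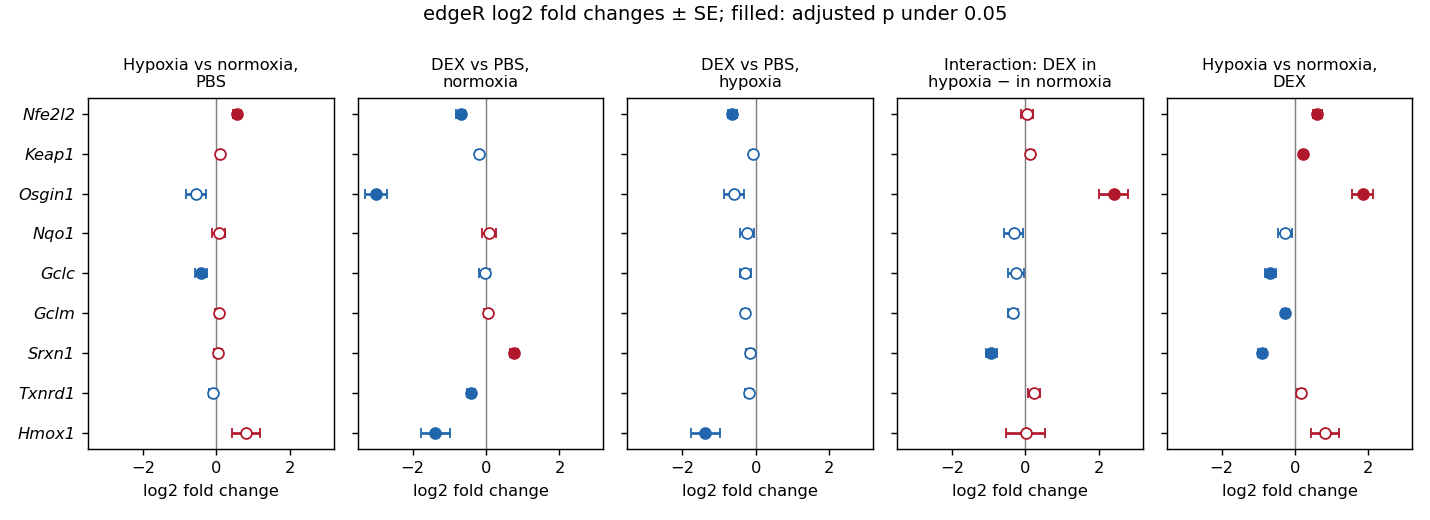
Log2 fold change (horizontal) ± SE from the edgeR model for each of the 9 genes in 5 comparisons, with filled points where the adjusted p was under 0.05, red above 0 and blue below. In the panel for DEX in normoxia Osgin1 lies at -3.01, and of the filled points there Srxn1 alone lies above 0.

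Set per kilobase of exon, the order of the 9 genes also changed with the group. In normoxia with PBS, Osgin1 was highest at 128 ± 33.2 CPM per kb, then Hmox1 at 73.8 ± 38.9 and Gclc at 60.8 ± 1.79, and these neighbours did not differ beyond their spread. Gclm at 26.6 ± 0.785 and Txnrd1 at 25.5 ± 1.73 also lay within their spread, as did Srxn1 at 10.4 ± 0.483 and Keap1 at 10.05 ± 0.408. Nqo1 was lowest at 7.86 ± 1.18 CPM per kb. In normoxia with DEX, Gclc led at 59.6 ± 6.065 CPM per kb, well apart from Hmox1 at 28.3 ± 2.66, while Osgin1 at 15.9 ± 4.79 and Srxn1 at 17.65 ± 0.947 lay within their spread. In hypoxia with PBS, Hmox1 led at 129 ± 39.4 CPM per kb, and its spread reached that of Osgin1 at 86.5 ± 23.6. In hypoxia with DEX, Osgin1 led at 57.2 ± 2.74 CPM per kb and did not differ beyond the spread from Hmox1, the next in order.

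The genes most like Nfe2l2, Osgin1 and Hmox1 across the 12 libraries were sought by the root mean square difference of centred log2 CPM, for members whose group means spanned at least 1 on the log2 scale. Nfe2l2, with a span of 1.25, was nearest to Sox13 (0.11), Enpp4 (0.13) and Mcam (0.13). Osgin1, with a span of 3.02, was nearest to Efna1 (0.35), Id2 (0.48) and Cda (0.50). Efna1, an ephrin ligand, averaged 69.7 ± 17.4 CPM in normoxia with PBS, 9.38 ± 4.78 with DEX, 51.1 ± 9.24 in hypoxia with PBS and 47.5 ± 7.08 with DEX. Hmox1, with a span of 2.14, had Phlda1 (0.22) and Fignl2 (0.24) among its nearest. These distances describe the 12 libraries, which share treatments and depth, and carry no test.

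The wider pathway was described with lists of other genes, read by their counts and medians only. Of 18 genes for partners and regulators of NRF2, hypoxia under PBS raised 5 and lowered 2 (38.9% called, beside 35.7% of all tested genes, with a median log2 fold change of 0.17 beside 0.007). Bach2, a repressor of the same factor family that pairs with small MAF proteins, fell from 13.3 ± 1.36 to 4.07 ± 0.978 CPM (edgeR log2 change -1.70 with SE 0.20, adjusted p = 3.97e-05). Park7, which encodes the redox-sensitive protein DJ-1, rose from 84.85 ± 6.40 to 120.5 ± 6.70 CPM (edgeR log2 change 0.51, adjusted p = 0.000217). Mafg, a small MAF partner of NRF2, rose from 73.8 ± 23.65 to 128 ± 22.0 CPM (edgeR log2 change 0.80, adjusted p = 0.0136), and this call was lost without Hypoxia_PBS-3 or in a fit of the compared groups alone (adjusted p up to 0.06).

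After DEX in normoxia, where 9.38% of all tested genes rose and 7.4% fell, 2 of the 18 rose and 0 fell, with 1 lower at an unadjusted p under 0.05 in edgeR and 0 lower in DESeq2. Ep300, the acetyltransferase and coactivator p300, was at 35.8, 34.8 and 34.15 CPM with PBS and at 72.9, 84.5 and 70.4 CPM with DEX (edgeR log2 change 1.12 with SE 0.09, adjusted p = 1.33e-06). The hypoxia values were 38.4, 34.0 and 41.8 CPM with PBS and 48.8, 45.8 and 48.5 CPM with DEX (edgeR log2 change 0.325 with SE 0.09, adjusted p = 0.025). DEX libraries were above PBS libraries at both oxygen levels, by less in hypoxia: the responses differed by -0.80 (SE 0.12, edgeR adjusted p = 0.00642), a call kept in all 18 alternatives. The call in hypoxia alone was kept in 14 of 19 and lost without Hypoxia_DEX-1, Hypoxia_DEX-3 or Hypoxia_PBS-2 (adjusted p up to 0.0732). Bach2 rose with DEX in normoxia (edgeR log2 change 0.69, adjusted p = 0.0138), but not without Normoxia_DEX-2 or Normoxia_PBS-2 (adjusted p from 0.00347 to 0.0779 over the alternatives). The 11 lymphocyte markers, which bear on Bach2 because B cells express it, summed to 33.8 to 41.3 CPM in normoxia with PBS, 23.9 to 30.7 with DEX, 13.85 to 25.2 in hypoxia with PBS and 16.75 to 19.6 with DEX. Their part in the Bach2 differences was not tested.

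Among further targets for glutathione use and conjugation, 17 of 21 genes could be tested, since Slc7a11, Gpx2, Gsta1 and Ggt1 did not pass the filter on low counts. Hypoxia under PBS raised 2 and lowered 7 of the 17 (median log2 fold change -0.34), where 18.9% of all tested genes were higher and 16.8% lower. Both raised genes encode glutathione transferases. Mgst1 went from 2046 ± 97.8 to 2968 ± 115.9 CPM (edgeR log2 change 0.54, adjusted p = 0.000316). Gstm2 went from 62.5 ± 8.35 to 98.9 ± 15.4 CPM (edgeR log2 change 0.66, adjusted p = 0.00834). The largest falls were in glutathione S-transferases: Gstm4 went from 57.8 ± 7.73 to 19.96 ± 3.35 CPM (edgeR log2 change -1.53, adjusted p = 1.83e-06). Gsta4 went from 42.9 ± 8.11 to 18.8 ± 3.67 CPM (edgeR log2 change -1.19, adjusted p = 0.000171). Gstm3 was at 39.1, 59.1 and 59.85 CPM in normoxia with PBS and at 19.8, 26.3 and 15.1 CPM in hypoxia with PBS (edgeR log2 change -1.37, adjusted p = 0.000707).

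DEX in normoxia raised 5 of these 17 and lowered 0, where 9.38% of all tested genes rose and 7.4% fell. Of the 17, 0 were lower at an unadjusted p under 0.05 in edgeR and 0 in DESeq2. Gstm3 rose to 181, 179.4 and 146 CPM (edgeR log2 change 1.68 with SE 0.21, adjusted p = 0.000232). In hypoxia with DEX it was at 39.7, 31.9 and 39.6 CPM (edgeR log2 change 0.87 with SE 0.21, adjusted p = 0.023, called in 12 of 19 alternatives and lost without Hypoxia_DEX-1, Hypoxia_DEX-3, Hypoxia_PBS-1 or Hypoxia_PBS-3, with adjusted p up to 0.0768). Gstm2 rose in normoxia from 62.5 ± 8.35 to 129 ± 30.95 CPM (edgeR log2 change 1.04, adjusted p = 0.000856), and Ugt1a6a, a glucuronosyltransferase, from 4.02 ± 0.549 to 9.57 ± 1.41 CPM (edgeR log2 change 1.26, adjusted p = 0.000251). Abcc2, the canalicular exporter of conjugates, rose with DEX in normoxia from 691.6 ± 29.1 to 1027 ± 83.2 CPM (edgeR log2 change 0.57, adjusted p = 0.00025). It rose with DEX in hypoxia too, from 624 ± 27.6 to 938 ± 54.2 CPM (edgeR log2 change 0.59, adjusted p = 0.000404). The mu class transferases are close copies of one another, and the Ugt1a genes share exons, so reads may have been split between them.

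Of 10 genes for thioredoxin and NADPH supply, hypoxia under PBS raised 4 and lowered 2, and DEX in normoxia moved 0, with 1 higher and 1 lower at an unadjusted p under 0.05 in edgeR and 1 called higher by DESeq2. Of all tested genes, hypoxia under PBS raised 18.9% and lowered 16.8%, and DEX in normoxia raised 9.38% and lowered 7.4%. G6pdx, the first enzyme of the oxidative pentose phosphate pathway, fell in hypoxia from 9.51 ± 4.01 to 3.45 ± 0.547 CPM (edgeR log2 change -1.48, adjusted p = 0.0121), a call lost without Hypoxia_PBS-1, where the adjusted p ranged over the alternatives from 0.000166 to 0.0847. Pgd, a later enzyme of the same pathway, rose from 34.7 ± 1.48 to 48.8 ± 7.34 CPM (edgeR log2 change 0.49, adjusted p = 0.00676). Of 12 tested genes for quinone and carbonyl detoxification, hypoxia under PBS raised 3 and lowered 2. DEX in normoxia raised 2 and lowered 0, with 0 lower at an unadjusted p under 0.05 in edgeR and 0 in DESeq2. Cbr1, a carbonyl reductase, rose in hypoxia from 53.1, 59.5 and 58.5 CPM to 107.0, 99.6 and 96.7 CPM (edgeR log2 change 0.825 with SE 0.09, adjusted p = 1.89e-05). It also rose with DEX in normoxia, to 102.7, 82.8 and 92.5 CPM (edgeR log2 change 0.70 with SE 0.09, adjusted p = 9.15e-05). Its neighbour in function Cbr3 rose with DEX in normoxia from 0.262 ± 0.0837 to 1.55 ± 0.2725 CPM (edgeR log2 change 2.51 with SE 0.39, adjusted p = 0.000515), at a very low level.

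Around Hmox1, 12 genes for heme breakdown and iron storage included 4 that rose and 0 that fell in hypoxia under PBS, with 0 lower at an unadjusted p under 0.05 in edgeR and 0 in DESeq2. In that comparison 18.9% of all tested genes were higher and 16.8% lower. Fth1, the ferritin heavy chain, rose from 1017 ± 99.3 to 1550.0 ± 42.7 CPM (edgeR log2 change 0.61, adjusted p = 0.00014). Abcg2, an exporter of porphyrins, rose from 43.3 ± 1.75 to 80.1 ± 6.89 CPM (edgeR log2 change 0.89, adjusted p = 2.18e-06). DEX in normoxia raised 3 of these 12, where 9.38% of all tested genes rose and 7.4% fell. Hmox2, the constitutive heme oxygenase, went from 37.7 ± 2.94 to 48.4 ± 3.87 CPM (edgeR log2 change 0.36, adjusted p = 0.00424). Hp, the plasma haptoglobin that binds hemoglobin, rose as well (edgeR log2 change 0.65, adjusted p = 0.00241), as did Cd163, the macrophage receptor for that complex (edgeR log2 change 1.11, adjusted p = 0.0111, and 0.0757 in a fit of the compared groups alone). Cd163 is also among the 15 Kupffer markers. Of 21 other antioxidant enzymes, hypoxia under PBS raised 7 and lowered 7, and DEX in normoxia raised 1 and lowered 0, with 0 lower at an unadjusted p under 0.05 in edgeR and 0 in DESeq2. Glrx, glutaredoxin 1, rose in hypoxia from 23.35, 19.0 and 22.8 CPM to 83.8, 66.9 and 73.9 CPM (edgeR log2 change 1.79 with SE 0.09, adjusted p = 1.1e-07).

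After DEX in hypoxia, where 6.13% of all tested genes rose and 7.05% fell, the lists held few calls. Of the partners 1 of 18 rose and 0 fell, and of the glutathione and conjugation genes 3 of 17 rose and 0 fell. Neither list had a gene lower at an unadjusted p under 0.05 in edgeR or called lower by DESeq2. Of the heme and iron genes 1 of 12 rose and 1 fell. No gene was called among the 10 for thioredoxin and NADPH supply, the 12 for quinone and carbonyl detoxification or the 21 other enzymes, where edgeR had 1, 2 and 3 genes at an unadjusted p under 0.05 and DESeq2 called 0 in each. The DEX response differed between the oxygen levels for Ep300 and for Gstm2 alone among the listed genes. For Gstm2 the difference was -1.20 (SE 0.23, edgeR adjusted p = 0.0314), in a range of 0.000179 to 0.103, and it was lost without any 1 of the 3 hypoxia DEX libraries, Hypoxia_PBS-1, Hypoxia_PBS-2, Normoxia_PBS-1 or Normoxia_PBS-2. Among DEX mice, where 20.7% of all tested genes were higher and 22.2% lower in hypoxia, hypoxia raised 4 and lowered 3 of the partners, 2 and 9 of the glutathione and conjugation genes, 4 and 4 of the thioredoxin and NADPH genes, 4 and 4 of the quinone and carbonyl genes, 2 and 2 of the heme and iron genes, and 7 and 9 of the others.

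**Figure D5:**
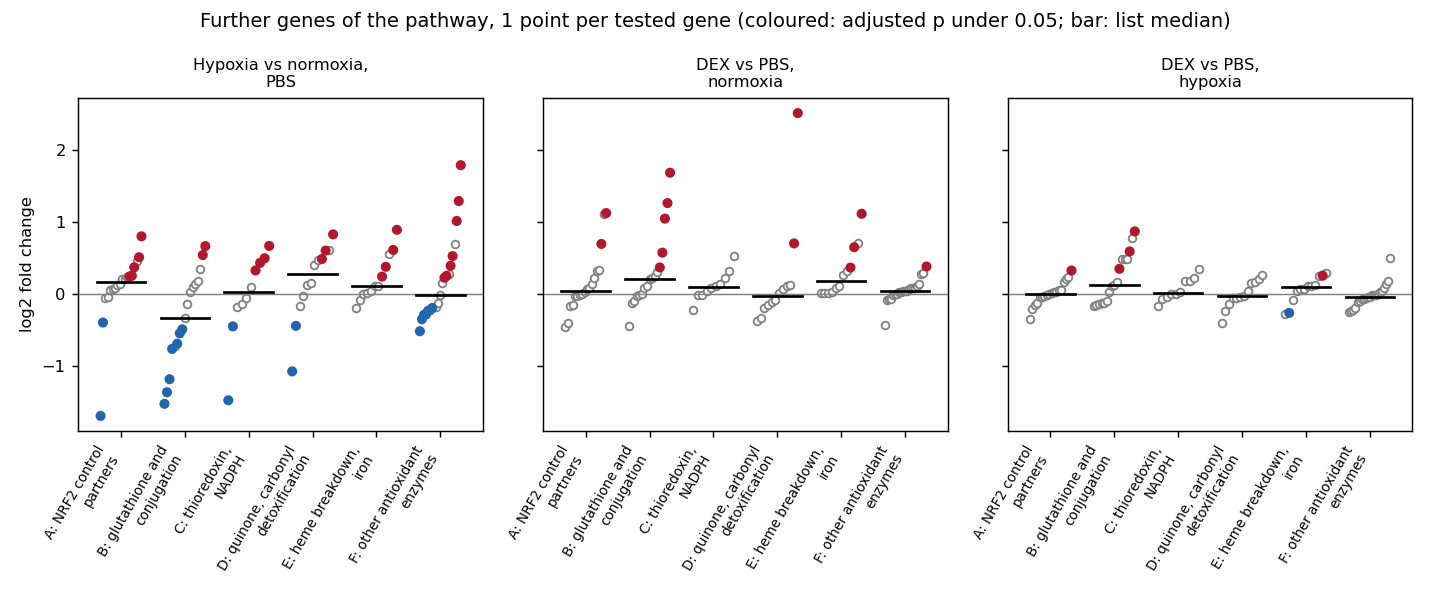
Log2 fold change (vertical) of every tested gene in the 6 pathway lists for 3 comparisons, with a point per gene, coloured where the adjusted p was under 0.05, and a black bar at the list's median. The glutathione and conjugation list has its median at -0.34 in hypoxia under PBS and at 0.20 after DEX in normoxia.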

How the data were processed

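Liver RNA of 12 mice was measured as whole-number counts per gene, which the authors deposited without normalization. Per the submitters' processing notes, Trimmomatic, HISAT2 2.0.4, SAMtools, featureCounts and DESeq2 were used with the mm10 build. Per the labels' protocols, libraries came from a stranded mRNA kit. The annotation release, and whether counting used strand, is not given in the sources used, but genes overlapping a member held at most 15 counts, or 0.25% of the member's. The labels' protocol names both oxygen arms hypoxia, and the titles, which name normoxia, were followed.

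The counts went into edgeR 4.0.16 (R 4.3.3): filterByExpr left 13861 genes, TMM scaled libraries, and a robust quasi-likelihood model with 1 mean per group over 12 libraries (8 residual degrees of freedom) gave each comparison. P-values were adjusted by Benjamini-Hochberg across every tested gene, with a threshold of 0.05. Log2 CPM used a prior count of 2. The fit was tested on simulated data. Alternatives were RLE scaling, DESeq2 1.42.0, no low-count filter, only the compared groups, a replicate block, each library left out, Hypoxia_DEX-1 and Hypoxia_DEX-3 summed, and Hypoxia_DEX-2 and Hypoxia_PBS-1 both left out. An exact two-sided permutation test was used for ratios. The rule for named genes took the 9 members, up to 3 genes per list and comparison with the largest called changes, and the 3 genes nearest to each member whose group means spanned at least 1 on the log2 scale. Several list genes so chosen are not described. Mgst1 was named outside the rule, and some named genes are given in comparisons that did not pick them. A gene chosen by this rule is not reported here. Members, lists and these alternatives were chosen with earlier results of these data known. Positions are from GENCODE release M21 on mm10 and promoters from RefSeq. Library depth was 12464687 to 24715995 counts.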

Additional observations from a re-analysis of the deposited data

Results flagged for a closer look

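For 2 of the 9 genes the DEX response differed between the oxygen levels by the test of the difference itself. For Osgin1 the log2 response in hypoxia minus that in normoxia was 2.413 (SE 0.395, edgeR adjusted p = 0.0219): DEX gave -3.01 in normoxia and -0.60 in hypoxia, and the level was lower in all 3 DEX libraries than in all 3 PBS libraries at both oxygen levels. For Srxn1 it was -0.93 (SE 0.15, edgeR adjusted p = 0.00858): DEX gave 0.76 in normoxia, with all 3 DEX libraries above all 3 PBS libraries, and -0.17 in hypoxia, where the groups overlapped. The Osgin1 difference did not pass in 6 of 18 alternatives, and the Srxn1 difference passed in all 18.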

How the results depend on the processing

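Of the fold changes of the 9 genes, 762 alternative values kept direction and side of the threshold, 49 lost the threshold, 12 gained it and 23 changed sign, the last all among values that were not called. The counts of called members moved by over 1.5 times in few settings outside single left-out libraries. With RLE scaling or no filter, 1 member was called after DEX in hypoxia, and with no filter 1 in hypoxia under PBS. DESeq2 called 373 genes for the difference of DEX responses, where edgeR called 183. In a fit of the compared groups alone, 1180 genes were called after DEX in hypoxia, against 1827. With Hypoxia_DEX-1 and Hypoxia_DEX-3 summed, DEX in hypoxia gave 1160 genes and 1 member, and the difference of responses 70 genes and 1 member. With Hypoxia_DEX-2 and Hypoxia_PBS-1 both left out, DEX in hypoxia gave 5 members and the difference of responses 475 genes. There, log2 fold changes near 0 turned: Nqo1 -0.233, Srxn1 -0.134 and Txnrd1 0.005 in hypoxia under PBS, Srxn1 0.079 after DEX in hypoxia, and Nfe2l2 -0.113 and Hmox1 -0.415 for the difference of responses.

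Leaving out 1 library at a time, called genes ranged over 3801 to 5094 for hypoxia under PBS, 1687 to 2748 for DEX in normoxia, 1072 to 2466 for DEX in hypoxia, 63 to 306 for the difference of responses and 4757 to 6370 for hypoxia under DEX. Called members ranged over 1 to 2, 3 to 6, 1 to 3, 1 to 2 and 4 to 7. Signs turned for Nqo1 (-0.234 to 0.244), Gclm (-0.005 to 0.143), Srxn1 (-0.135 to 0.111) and Txnrd1 (-0.161 to 0.004) in hypoxia under PBS, for Gclc (-0.122 to 0.022) and Gclm (-0.053 to 0.106) after DEX in normoxia, for Nqo1 (-0.426 to 0.058) and Srxn1 (-0.246 to 0.01) after DEX in hypoxia, and for Nfe2l2 (-0.04 to 0.182) and Hmox1 (-0.485 to 0.298) in the difference of responses. The cause was not tested.

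With the replicate number as a block, 4945, 2386, 1852, 180 and 5917 genes and 2, 5, 2, 2 and 6 members were called in the same order, no call of the 9 genes changed, and Hmox1, which was not called, turned to -0.025 in the difference of responses. Deviations of same-numbered libraries correlated from -0.074 to 0.39, and 2, 3, 3 and 4 of 6 libraries in the 4 pairwise comparisons correlated best with their own number, so the numbers were not read as pairs.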
